A study of Mus musculus with 9 samples.

Results

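The 37 genes described here are the interferon response genes: genes that cells switch on when interferon binds its receptors, together with a few of their regulators. They were taken by symbol from a list of known interferon-induced genes, and each matched 1 of the 55357 gene identifiers in the table. The low-count filter left 15046 genes to test, and 34 of the 37 were among them. Ifit3, Oasl1 and Ifitm1 were too low to be tested and are given below by their counts.

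RNA-seq was performed on keratinocytes sorted from mouse back skin, with 3 libraries for each of 3 populations. All mice were C57BL/6, carried the TNC-CREER and tdTomato alleles, received tamoxifen at 100 µg per g on postnatal days 51 and 52 and were sampled on postnatal day 60, so no group lacks Cre or tamoxifen. All populations were EPCAM+ and integrin α6+. Touchdome cells, from the patches of epidermis that house the touch receptors, were SCA1+ and TOMATO+, cells of the IFE (interfollicular epidermis) were SCA1+ and TOMATO-, and cells of the HF (hair follicle) were SCA1- and TOMATO-. The reporter marks cells in which Tnc, the gene of the matrix protein Tenascin-C, was active around the time of tamoxifen. Whether libraries of 1 group stem from different animals or from pools is not stated in the labels, and the p-values therefore reflect only how far these libraries scatter, a scatter that may be technical.

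Type I and type III interferons act through JAK kinases on a complex that contains STAT2 and IRF9 and binds the interferon-stimulated response element of target promoters, while interferon gamma acts mainly at gamma-activated sites. The induced proteins degrade or bind foreign RNA, block virus entry and release, cut peptides for antigen presentation and restrain the signal itself. Many epithelia hold a low level of these genes without infection, and keratinocytes both make and answer interferons.

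Library totals were 9295059 to 28249763 counts. The sorted populations carried the markers of their gates: Tnc was 200.4, 282 and 288 CPM (counts scaled to a common library size) in the Touchdome libraries against at most 7.16 in IFE and 56.9 in HF, and Epcam and Itga6 were present in all libraries. Ly6a, which encodes SCA1, ranged from 104.1 to 179.6 CPM in the SCA1+ populations and was 0.914, 0.422 and 1.90 CPM in HF. Of the 4 touch dome markers listed, Tnc alone was higher in Touchdome than in HF (edgeR adjusted p under 0.05). Cd200 and Gli1 were lower by that test, with Touchdome means of 24.6 and 74.4 CPM against 127 and 146.6 for HF. Krt17 differed little, at means of 1693 for Touchdome and 1584 for HF. Compared with IFE, all 4 were higher in Touchdome. Summed hair follicle markers were 3449 to 4490 CPM in HF, 273.6 to 336.2 in IFE and 505.4 to 1477 in Touchdome, where replicate 3 was the highest. IFE replicate 2 stood apart from the other IFE libraries, with a chi-square per degree of freedom of 64.35 and 69.18 against them, while the other pairs within groups lay between 15.67 and 25.07. HF replicate 3 had the lowest sums of Langerhans cell and macrophage markers in HF. Counts of called genes are therefore also given without these libraries.

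Most of the tested interferon response genes were lower in HF than in both SCA1+ populations. Against HF, 23 of the 34 tested members were higher in Touchdome, with a median log2 fold change over all 34 of 1.16. Against IFE, 19 of the 34 were lower in HF, with a median of -0.91. A gene was called where its adjusted p in edgeR's quasi-likelihood test, with Benjamini-Hochberg adjustment over all genes tested, was under 0.05. Several markers of keratinocyte state were also lower in HF, though not all. The summed IFE markers Ly6a, Krt1 and Krt10, of which the keratins mark differentiating epidermis, were at 968.6 to 1253 CPM in HF, 3929 to 5357 in IFE and 5674 to 7584 in Touchdome, and all 3 were called in both comparisons with HF. The 6 general keratinocyte markers, with the basal keratins Krt5 and Krt14, summed to 15440 to 16650 CPM in HF, 39380 to 42990 in IFE and 29570 to 34550 in Touchdome. Of these 6, 4 were higher in Touchdome than in HF, while 3 were lower and 1, Epcam, was higher in HF than in IFE. Their part in the result was not tested.

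Of all genes tested, 11.8% were called higher in Touchdome than in HF, against 67.6% of the tested members. Of all genes tested, 12.8% were called lower in Touchdome than in HF, and no member was, at an adjusted or at an unadjusted p under 0.05 in edgeR or at an adjusted p in DESeq2 or limma. Among the 23 members called, 16 differed by at least 2-fold, and the libraries of the 2 groups did not overlap for 22, all but Oas2. Of all 1773 genes called in that direction, 51.8% differed by at least 2-fold and 98.4% did not overlap. In the comparison of HF with IFE, 16% of all genes tested were called lower in HF, against 55.9% of the tested members, of which 12 differed by at least 2-fold. A further 17.1% of all genes were called higher in HF, and no member was by edgeR or DESeq2 with all 9 libraries, nor at an unadjusted p under 0.05 in edgeR. Both limma fits on TPM, and edgeR without HF replicate 3 or without IFE replicate 3, called 1 member higher in HF, Ddx58. The libraries did not overlap for 18 of the 19 members called lower, all but Ifi44. Of all 2401 genes called lower in HF, 41.4% differed by at least 2-fold and 97.4% did not overlap, so the absence of overlap is no feature of the members. The median log2 fold change of all genes tested was -0.0038 between Touchdome and HF and 0.0042 between HF and IFE.

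No member passed the main test between Touchdome and IFE, which did not pair libraries by number. Its log2 fold changes ran from -0.35 to 1.38. Of all genes tested, 1.22% were called higher in Touchdome than in IFE and 0.0798% lower, and none of the 34 members was called in either direction by edgeR, DESeq2 or limma with all 9 libraries. At an unadjusted p under 0.05, 2 members were higher in Touchdome, Mx1 and Irf9, and 1 was lower, Ifitm3, while 6.96% of all genes tested were higher and 3.71% lower at that p, so these counts do not stand out. In the estimates, 29 of 34 members had a positive log2 fold change, against 50.8% of all genes tested, with a median of 0.24 against 0.0048. The group mean was highest in Touchdome for 27 members, 79.4%, and in IFE for 5, 14.7%, against 21.8% and 35% of all genes tested. With the replicate number as a block in a fit of only these 2 groups, Oas3 alone was called, with an adjusted p of 0.0308. In that fit 2.64% of all genes tested were called higher in Touchdome and 0.952% lower, so 1 of 34 members is near the share of all genes. Within the 3 pairs of same-numbered libraries, 20 of the 34 members were higher in the Touchdome library of every pair, or 58.8% against 18.4% of all genes tested, and none was lower in every pair, against 16.2%. The 20 include Stat2, Irf7, Irf9, Isg15, Oas1a, Oas2, Oas3, Oasl2, Gbp2, Bst2 and Xaf1. Members share their libraries, so these are a description and no test.

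The comparisons share libraries and are not independent of each other. Because SCA1 was used in the sort, each comparison with HF is also a comparison of SCA1- with SCA1+ cells, and Ly6a itself is an interferon-induced gene, so the gate and the population cannot be told apart. In these bulk samples, fewer cells that express a gene and less RNA of it per cell cannot be told apart either. Without IFE replicate 2, 24 members were called higher in Touchdome than in HF and 22 lower in HF than in IFE, the latter with Irf7, Rsad2 and Gbp7 added. Without Touchdome replicate 3 the counts were 19 and 18, and without HF replicate 3 they were 22 and 17. Of all genes tested, 13.7% and 14.7% were called in these directions without IFE replicate 2. The shares were 10.7% and 15.1% without Touchdome replicate 3, and 9.25% and 12.8% without HF replicate 3. The count of members lower in HF than in IFE also depended on the scale. On log2(TPM + 1), limma called 11 members lower and 1 higher in HF than in IFE, against 7.99% and 19.7% of all genes tested. On that scale 71.1% of all calls were higher in HF, against 51.7% in the count test, and the median of all genes moved to 0.19. Relative to that shift the members' median was -0.70.

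**Figure D1:**
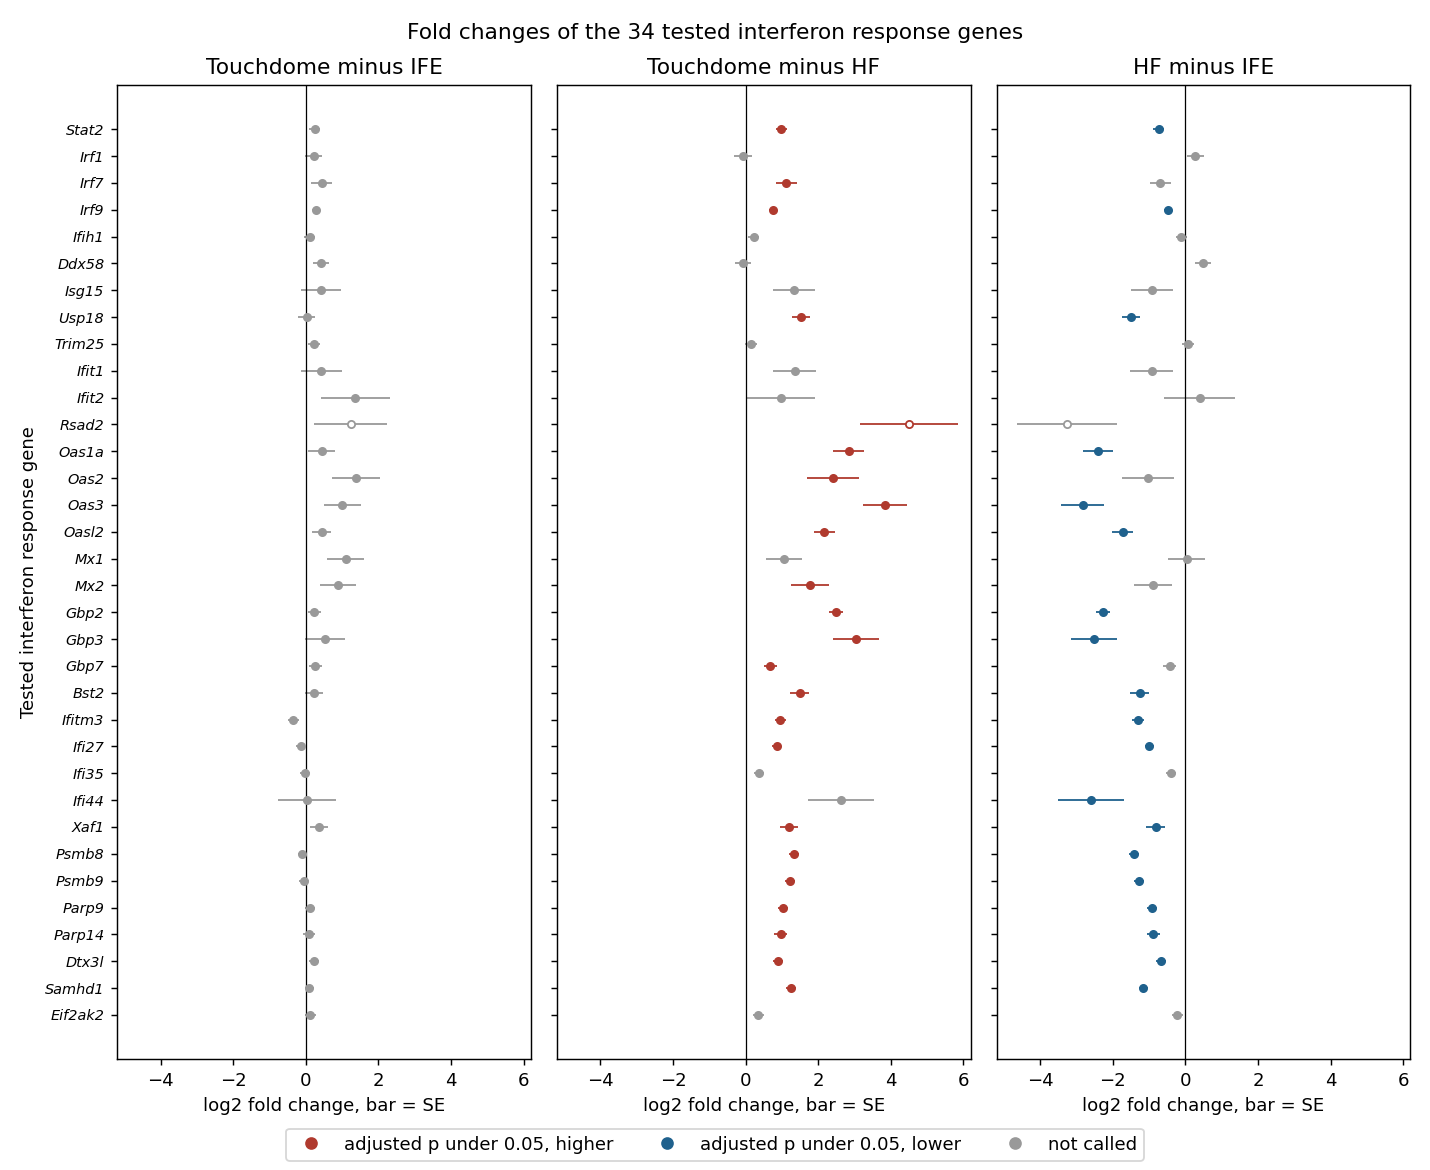
Log2 fold changes (points) with their SE (bars) of the 34 tested interferon response genes in each comparison, on 1 shared axis, coloured where the adjusted p was under 0.05. Of the members, 23 lie to the right as called genes for Touchdome minus HF, 19 to the left for HF minus IFE and none is called for Touchdome minus IFE. Rsad2 is drawn open because HF held only 2 counts of it, so its fitted value is no measure of size.

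The promoters are shown because known interferon motifs are common in those of the members. Sequences are from the RefSeq promoter table, build GRCm38.p6, which covers 250 bases before and 50 bases after a start site and held 30 of the 37 members. Usp18, Oas2, Mx1, Mx2, Ifi27, Parp9 and Parp14 had no entry. Both strands were searched for the core of the interferon-stimulated response element, GAAANNGAA (TTCNNTTTC on the other strand), and for the gamma-activated site, TTCNNNGAA, which reads the same on both. The response element core was found in 17 of the 30 members, 56.7%, against 9.76% of the 27025 genes in the table. The gamma-activated site was found in 10 of 30, 33.3%, against 9.55% of genes. In 10 members the core occurred 2 or more times in 1 promoter, and in Bst2 and Ifitm3 the 2 motifs share bases. Isg15, Ifit1 and Ifit3 held 3 core matches each. A match is a description of letters, not a site shown to be bound. The members were taken from a list of known interferon-induced genes, so these shares describe that choice and say nothing about the 3 populations.

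Below are the 6 members with a core match among those called higher in Touchdome than in HF that had the smallest p and a match before the start site. They are written 5′ to 3′ on the strand of the gene, with the core matches in capitals. Where upstream bases lie in an annotated exon, only 30 bases around the match are shown.
Gbp2, chr3:142620594-142620623, plus strand: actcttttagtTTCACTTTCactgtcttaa
Stat2, chr10:128270248-128270497, plus strand: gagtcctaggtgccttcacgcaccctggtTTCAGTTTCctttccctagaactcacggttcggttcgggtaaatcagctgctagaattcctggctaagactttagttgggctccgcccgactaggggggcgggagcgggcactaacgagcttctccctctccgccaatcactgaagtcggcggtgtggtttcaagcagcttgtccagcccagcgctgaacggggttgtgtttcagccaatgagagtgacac
Oas1a, chr5:120907526-120907775, minus strand: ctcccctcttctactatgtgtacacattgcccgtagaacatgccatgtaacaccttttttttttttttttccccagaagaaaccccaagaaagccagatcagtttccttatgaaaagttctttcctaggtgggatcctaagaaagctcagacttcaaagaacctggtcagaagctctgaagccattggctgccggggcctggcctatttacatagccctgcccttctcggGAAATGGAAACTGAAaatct
Oas3, chr5:120777713-120777742, minus strand: agggaggaGAAAACGAAAGTGAAgggaggt
Bst2, chr8:71537473-71537722, minus strand: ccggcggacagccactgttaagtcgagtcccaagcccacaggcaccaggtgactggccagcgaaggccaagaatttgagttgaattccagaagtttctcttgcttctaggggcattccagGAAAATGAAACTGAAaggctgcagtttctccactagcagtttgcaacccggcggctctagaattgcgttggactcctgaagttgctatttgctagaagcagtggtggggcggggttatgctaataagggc
Gbp3, chr3:142559794-142560043, plus strand: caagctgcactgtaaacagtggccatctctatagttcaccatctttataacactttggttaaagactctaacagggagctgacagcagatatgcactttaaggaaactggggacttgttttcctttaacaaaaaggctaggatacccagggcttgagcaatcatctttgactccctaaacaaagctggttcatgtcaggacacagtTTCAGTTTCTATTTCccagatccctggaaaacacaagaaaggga

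In Oas1a, Oas3, Bst2 and Gbp3 the 2 core matches overlap at their ends, whereas Gbp2 and Stat2 have a single match. Of the 17 members called higher in Touchdome than in HF that had a promoter in the table, 9 held a core match and 8 did not. Oasl2 and Xaf1 are shown as 2 of those without, with no capitals.
Oasl2, chr5:114896684-114896933, plus strand: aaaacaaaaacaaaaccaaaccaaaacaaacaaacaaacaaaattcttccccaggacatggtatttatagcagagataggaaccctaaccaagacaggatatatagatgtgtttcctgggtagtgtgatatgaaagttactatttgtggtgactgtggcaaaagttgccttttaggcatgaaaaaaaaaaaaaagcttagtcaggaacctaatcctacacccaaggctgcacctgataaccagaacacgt
Xaf1, chr11:72301379-72301628, plus strand: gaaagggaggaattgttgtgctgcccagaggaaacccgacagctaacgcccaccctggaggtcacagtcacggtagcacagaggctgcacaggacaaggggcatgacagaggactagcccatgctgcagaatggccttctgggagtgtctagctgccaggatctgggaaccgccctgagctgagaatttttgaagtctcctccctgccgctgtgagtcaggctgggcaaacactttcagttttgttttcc

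The absence of the letters says only that they are not in these windows. Members that were not called in any comparison also held the core, among them Isg15, Ifit1, Ifih1, Ddx58, Trim25 and Eif2ak2.

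Among the signalling transcription factors, 3 of 4 were higher in Touchdome than in HF and 2 of 4 were lower in HF than in IFE. Stat2, a subunit of the factor that binds the response element, was at 89.4, 75.9 and 85.5 CPM in the Touchdome libraries, 74.4, 57.2 and 80.3 in the IFE libraries and 48.7, 37.4 and 40.6 in the HF libraries. All HF libraries lay below all others. The log2 difference was 0.98 ± 0.15 for Touchdome minus HF (edgeR adjusted p = 0.000373) and -0.74 ± 0.15 for HF minus IFE (edgeR adjusted p = 0.00186). Irf9, the DNA-binding subunit of the same factor, was at 66.2, 63.6 and 71.5 CPM in the Touchdome libraries, 55.9, 50.6 and 59.3 in the IFE libraries and 42.4, 36.5 and 40.4 in the HF libraries. The groups formed 3 separate ranges, with HF the lowest and Touchdome the highest. The difference from HF was 0.75 ± 0.12 in Touchdome (edgeR adjusted p = 0.000427), and HF minus IFE was -0.47 ± 0.12 (edgeR adjusted p = 0.00684). Touchdome minus IFE was 0.28 ± 0.12 and was not called (edgeR adjusted p = 0.393). In both fits on TPM, limma did not call Stat2 in either comparison or Irf9 between HF and IFE.

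Irf7, which drives transcription of the type I interferon genes, was at 20.1, 11.9 and 24.2 CPM in the Touchdome libraries, 13.99, 9.71 and 17.6 in the IFE libraries and 10.5, 6.64 and 8.45 in the HF libraries. The Touchdome and HF libraries did not overlap, while both overlapped the IFE range. On the log2 scale, Touchdome minus HF was 1.12 ± 0.29 (edgeR adjusted p = 0.0134), and the call was lost without Touchdome replicate 3, without HF replicate 2 and with limma on TPM (adjusted p up to 0.115 over the alternatives). Irf1, a factor that interferon gamma induces through a gamma-activated site, did not follow the others: it was at 97.6, 69.9 and 146 CPM in the Touchdome libraries, 97.1, 74.4 and 98.3 in the IFE libraries and 101, 94.5 and 132 in the HF libraries. Its groups overlapped throughout, and its mean was highest in HF. By edgeR, Touchdome minus HF was -0.064 ± 0.24 (edgeR adjusted p = 0.891).

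The cytosolic RNA sensors showed no call in any comparison. Ddx58, which encodes RIG-I, was at 30.7, 30.6 and 36.03 CPM in the Touchdome libraries, 23.2, 19.1 and 30.4 in the IFE libraries and 35.7, 43.1 and 23.2 in the HF libraries. HF spanned a wider range than both other groups, and HF replicate 2 was the highest library of all. HF minus IFE was 0.48 ± 0.22 (edgeR adjusted p = 0.119), the opposite sign to most members, and Ddx58 was called higher in HF without HF replicate 3, without IFE replicate 3 and in both limma fits on TPM, with an adjusted p between 0.0212 and 0.402 over the alternatives. Ifih1, which encodes MDA5, lay within 27.9 to 41.3 CPM in all 9 libraries, with Touchdome minus HF at 0.23 ± 0.15 (edgeR adjusted p = 0.32).

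In the ISG15 system, 1 of 3 members differed. Usp18, the protease that strips ISG15 from proteins and dampens the type I receptor, was at 15.7, 19.1 and 11.2 CPM in the Touchdome libraries, 13.7, 19.8 and 12.1 in the IFE libraries and 5.71, 5.16 and 5.05 in the HF libraries. HF was low and tight, and the Touchdome and IFE ranges covered each other. The difference between Touchdome and HF was 1.53 ± 0.25 (edgeR adjusted p = 0.000692) and HF minus IFE was -1.51 ± 0.25 (edgeR adjusted p = 0.000487). Isg15, the ubiquitin-like modifier itself, was at 9.01, 3.93 and 7.47 CPM in the Touchdome libraries, 4.998, 3.52 and 6.74 in the IFE libraries and 5.35, 0.738 and 1.70 in the HF libraries. HF replicate 1 lay inside the range of the other groups while the other HF libraries lay below it. The difference of 1.33 ± 0.58 between Touchdome and HF was not called (edgeR adjusted p = 0.125), and without HF replicate 1 it was 2.43 and was called, with an adjusted p of 0.00729. Without that library HF minus IFE was also called, at -2.01. Trim25, a ubiquitin ligase that acts on RIG-I, lay within 51.98 to 85.2 CPM with overlapping groups, and Touchdome minus HF was 0.15 ± 0.15 (edgeR adjusted p = 0.542).

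The oligoadenylate synthetases make a short RNA-like messenger that activates the nuclease RNase L. Of the members called, Oas3 had the largest fitted log2 fold change in Touchdome against HF apart from Rsad2. All 4 tested genes were higher in Touchdome than in HF and 3 of 4 were lower in HF than in IFE. Oas3 was at 15.9, 8.76 and 13.4 CPM in the Touchdome libraries, 8.42, 2.04 and 8.29 in the IFE libraries and 1.10, 1.26 and 0.328 in the HF libraries. Every Touchdome library lay above every IFE library, if narrowly, and IFE replicate 2 was well below the other IFE libraries but above HF. The log2 difference of Touchdome minus HF was 3.84 ± 0.60 (edgeR adjusted p = 0.000712), HF minus IFE was -2.83 ± 0.59 (edgeR adjusted p = 0.00324) and Touchdome minus IFE was 1.01 ± 0.50 without a call (edgeR adjusted p = 0.529). On log2(TPM + 1), limma called Oas3 against HF in Touchdome and not in IFE, and with TPM + 0.1 in neither.

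Oas1a was at 14.4, 8.04 and 18.3 CPM in the Touchdome libraries, 10.2, 7.95 and 12.04 in the IFE libraries and 2.92, 1.79 and 0.852 in the HF libraries. The HF libraries were all below the other groups, which overlapped. On the log2 scale, Touchdome minus HF was 2.84 ± 0.42 (edgeR adjusted p = 0.000373) and HF minus IFE was -2.40 ± 0.42 (edgeR adjusted p = 0.000745). Oasl2 was at 43.99, 22.4 and 45.3 CPM in the Touchdome libraries, 31.04, 19.9 and 31.4 in the IFE libraries and 9.41, 8.85 and 6.68 in the HF libraries. On the TPM scale it was the most abundant gene of the family, and replicate 2 was the lowest library in both SCA1+ groups. By edgeR, Touchdome minus HF was 2.16 ± 0.29 (edgeR adjusted p = 0.000228) and HF minus IFE was -1.73 ± 0.28 (edgeR adjusted p = 0.000658).

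Oas2 was at 5.69, 1.52 and 5.56 CPM in the Touchdome libraries, 1.10, 1.27 and 2.50 in the IFE libraries and 0.731, 1.58 and 0.197 in the HF libraries. Touchdome replicate 2 lay among the IFE and HF libraries and the other Touchdome libraries were far above. The difference between Touchdome and HF was 2.41 ± 0.72 (edgeR adjusted p = 0.0264), a call that was lost without either of Touchdome replicates 1 and 3 and without either of HF replicates 1 and 3, and also with the replicate block. Oasl1 was not tested: Touchdome held 12 counts, IFE 1 and HF 2, which gives a Touchdome to HF ratio of 7.20 with an exact 95% counting interval of 1.60 to 66.2. Such intervals cover counting error only. The Oas genes are close paralogs, so their estimated counts depend on how shared reads were divided.

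**Figure D2:**
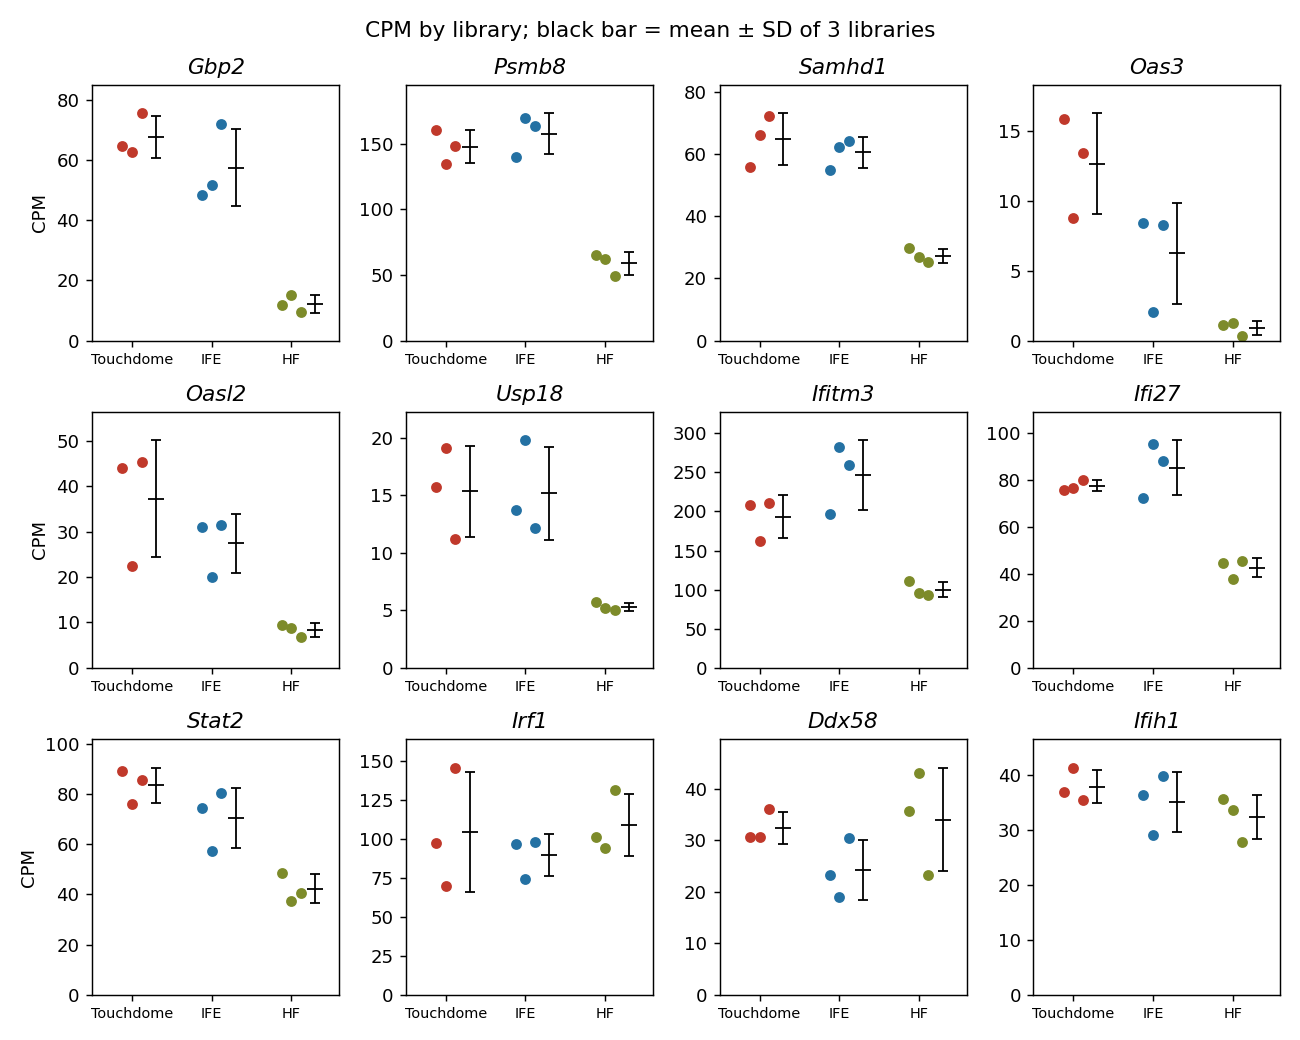
CPM of 12 interferon response genes in each library (points, 3 per group, replicates 1 to 3 from left to right) with the group mean ± SD (black), on axes that start at 0. Gbp2, Psmb8 and Samhd1 show HF far below 2 overlapping groups, Oas3 shows Touchdome above IFE without overlap, and Irf1, Ddx58 and Ifih1 show groups that overlap with HF.

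The guanylate-binding proteins, GTPases that coat pathogens and their vacuoles, were all higher in Touchdome than in HF, and 2 of 3 were lower in HF than in IFE. Gbp2 was at 64.8, 62.9 and 75.6 CPM in the Touchdome libraries, 48.6, 51.8 and 72.2 in the IFE libraries and 11.7, 15.2 and 9.50 in the HF libraries. HF stood well apart from both other groups, which overlapped. The log2 difference of Touchdome minus HF was 2.49 ± 0.20 (edgeR adjusted p = 2.22e-06) and HF minus IFE was -2.26 ± 0.20 (edgeR adjusted p = 2.94e-06), the smallest p-values of any member. Gbp3 was far less abundant, at 3.005, 1.61 and 4.15 CPM in the Touchdome libraries, 2.31, 1.06 and 2.69 in the IFE libraries and 0.503, 0.316 and 0.197 in the HF libraries. No HF library reached the other groups, and the differences were 3.04 ± 0.64 for Touchdome minus HF (edgeR adjusted p = 0.00352) and -2.52 ± 0.63 for HF minus IFE (edgeR adjusted p = 0.00787). HF held only 17 counts of it, and neither limma fit on TPM called either. Gbp7 was at 17.6, 17.7 and 15.7 CPM in the Touchdome libraries, 16.7, 11.7 and 14.3 in the IFE libraries and 10.1, 10.1 and 11.5 in the HF libraries. Its difference was smaller, with Touchdome minus HF at 0.68 ± 0.18 (edgeR adjusted p = 0.0149), lost without HF replicate 1 and in both limma fits on TPM, and HF minus IFE at -0.43 ± 0.18 without a call (edgeR adjusted p = 0.0885).

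The immunoproteasome subunits Psmb8 and Psmb9, which replace constitutive proteasome subunits to change the peptides offered to T cells, differed in both comparisons with HF. Psmb8 was at 160.3, 135 and 149 CPM in the Touchdome libraries, 140.3, 169.7 and 163 in the IFE libraries and 65.6, 62.4 and 49.1 in the HF libraries. Touchdome and IFE overlapped and HF lay below both in every library. On the log2 scale, Touchdome minus HF was 1.32 ± 0.13 (edgeR adjusted p = 1.61e-05) and HF minus IFE was -1.42 ± 0.13 (edgeR adjusted p = 5.75e-06). Psmb9 was at 82.4, 62.4 and 77.9 CPM in the Touchdome libraries, 67.3, 81.04 and 83.2 in the IFE libraries and 31.4, 32.5 and 31.9 in the HF libraries. The HF libraries were close to each other and below all others, and the differences were 1.22 ± 0.13 (edgeR adjusted p = 2.97e-05) and -1.27 ± 0.13 (edgeR adjusted p = 1.26e-05). Both subunits were called in every alternative run.

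Of the membrane proteins that restrict viruses, both tested genes were higher in Touchdome than in HF and lower in HF than in IFE. Ifitm3, which blocks fusion of viruses in endosomes, was at 208, 162 and 210.2 CPM in the Touchdome libraries, 197, 283 and 259 in the IFE libraries and 111, 96.2 and 92.5 in the HF libraries. The order of the means was IFE, Touchdome and then HF, and only HF was separate. By edgeR, Touchdome minus HF was 0.95 ± 0.15 (edgeR adjusted p = 0.000571), HF minus IFE was -1.30 ± 0.15 (edgeR adjusted p = 3.42e-05) and Touchdome minus IFE was -0.35 ± 0.15 without a call (edgeR adjusted p = 0.427). Bst2, also called tetherin, which holds budding virions at the cell surface, was at 12.5, 8.40 and 12.5 CPM in the Touchdome libraries, 9.79, 8.02 and 10.6 in the IFE libraries and 3.24, 4.43 and 4.33 in the HF libraries. HF was below the other groups in every library, with Touchdome minus HF at 1.49 ± 0.26 (edgeR adjusted p = 0.000932) and HF minus IFE at -1.26 ± 0.26 (edgeR adjusted p = 0.00204). Ifitm1 was not tested, with 15 counts in Touchdome, 24 in IFE and 55 in HF, and was at 1.65, 1.37 and 0.393 CPM in HF against at most 0.536 in any other library. Its highest libraries were therefore in HF, unlike those of Ifitm3.

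The linked antiviral genes Parp9, Parp14 and Dtx3l were all called in both comparisons with HF. Both limma fits on TPM lost the HF minus IFE call of Parp14 (adjusted p up to 0.0992) and of Dtx3l (up to 0.14). Parp9 and Dtx3l encode partners in 1 ADP-ribosyl and ubiquitin ligase complex. Dtx3l was at 41.7, 53.4 and 46.5 CPM in the Touchdome libraries, 38.98, 41.01 and 41.2 in the IFE libraries and 25.5, 27.3 and 23.7 in the HF libraries, with 3 ranges that did not overlap. The difference between Touchdome and HF was 0.89 ± 0.13 (edgeR adjusted p = 0.00027) and HF minus IFE was -0.67 ± 0.13 (edgeR adjusted p = 0.00139). Parp9 was at 41.4, 45.9 and 43.8 CPM in the Touchdome libraries, 39.2, 37.6 and 43.7 in the IFE libraries and 22.4, 24.1 and 17.7 in the HF libraries. Its Touchdome minus HF difference of 1.03 ± 0.14 (edgeR adjusted p = 0.000168) and its HF minus IFE difference of -0.91 ± 0.14 (edgeR adjusted p = 0.00026) were close in size to those of its partner. Parp14, a mono-ADP-ribosyltransferase, had means of 68.4 ± 10.1, 64.3 ± 12.7 and 34.96 ± 5.73 CPM (SD, n = 3) in Touchdome, IFE and HF, and Touchdome minus HF was 0.97 ± 0.18 (edgeR adjusted p = 0.00139).

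Samhd1, which depletes the nucleotides that viruses need for DNA synthesis, was at 55.8, 66.2 and 72.2 CPM in the Touchdome libraries, 54.8, 62.4 and 64.3 in the IFE libraries and 29.6, 26.8 and 25.1 in the HF libraries. Every HF library lay below the lowest library of both other groups. The log2 difference of Touchdome minus HF was 1.25 ± 0.13 (edgeR adjusted p = 2.46e-05) and HF minus IFE was -1.15 ± 0.13 (edgeR adjusted p = 2.71e-05). Eif2ak2, the RNA-activated kinase PKR that halts translation, lay within 29.3 to 46.8 CPM, with Touchdome minus HF at 0.35 ± 0.15 (edgeR adjusted p = 0.126). Its Touchdome libraries were all above its HF libraries, but the difference was small and not called.

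Among the remaining induced proteins, Ifi27 was at 75.6, 76.7 and 80.1 CPM in the Touchdome libraries, 72.2, 95.03 and 87.9 in the IFE libraries and 44.4, 37.9 and 45.5 in the HF libraries. HF was separate from the other 2 groups, and Touchdome lay within the IFE range. On the log2 scale, Touchdome minus HF was 0.86 ± 0.13 (edgeR adjusted p = 0.000312) and HF minus IFE was -0.99 ± 0.13 (edgeR adjusted p = 6.2e-05). Xaf1, a pro-apoptotic partner of the caspase inhibitor XIAP, was at 11.96, 14.1 and 16.3 CPM in the Touchdome libraries, 9.68, 8.72 and 14.1 in the IFE libraries and 7.63, 4.64 and 6.03 in the HF libraries. By edgeR, Touchdome minus HF was 1.19 ± 0.26 (edgeR adjusted p = 0.00425) and HF minus IFE was -0.82 ± 0.26 (edgeR adjusted p = 0.0258), the second being lost without IFE replicate 3, HF replicate 2 or HF replicate 3 and in both limma fits on TPM.

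Ifi44 was at 3.39, 0.626 and 2.49 CPM in the Touchdome libraries, 2.999, 0.492 and 2.84 in the IFE libraries and 0.686, 0.211 and 0.0655 in the HF libraries. Replicate 2 was far below its companions in both SCA1+ groups and reached the HF range. HF minus IFE was -2.60 ± 0.91 (edgeR adjusted p = 0.0432) and was lost in 8 of 17 alternatives, namely both limma fits and those without Touchdome replicate 1 or 3, IFE replicate 1 or 3, or HF replicate 2 or 3. Its Touchdome minus HF difference was 2.63 ± 0.92 without a call (edgeR adjusted p = 0.0527) and gained a call in 7 of 16 alternatives. Ifi35 lay within 18.3 to 28.00 CPM, and its Touchdome minus HF difference was 0.37 ± 0.15 (edgeR adjusted p = 0.0867).

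The IFIT genes, whose proteins bind foreign RNA, were at low levels, and Ifit3 was too low to be tested. Ifit1 was at 3.64, 1.16 and 2.57 CPM in the Touchdome libraries, 0.894, 2.25 and 2.39 in the IFE libraries and 1.23, 0.843 and 0.786 in the HF libraries. The Touchdome and HF ranges overlapped only at Touchdome replicate 2, and the difference of 1.35 ± 0.59 was not called (edgeR adjusted p = 0.121). Ifit2 had 46 counts in Touchdome, 28 in IFE and 27 in HF, and Ifit3, not tested, had 15, 11 and 7. Of each, IFE replicate 2 held 0 counts, which allows up to 0.211 CPM.

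Rsad2, which encodes the antiviral enzyme viperin, was at 1.09, 0.804 and 1.58 CPM in the Touchdome libraries, 0.737, 0 and 0.681 in the IFE libraries and 0, 0 and 0.131 in the HF libraries. It was seen in every Touchdome library and in 1 HF library, and IFE replicate 2 held none. The 45 counts in Touchdome against 2 in HF give a ratio of 27.0, with an exact 95% counting interval of 7.05 to 230, and the difference was called (edgeR adjusted p = 0.0279). The call was lost without Touchdome replicate 1 or 3, without HF replicate 1 or 2 and in both limma fits on TPM (adjusted p up to 0.113). IFE had 32 counts, a ratio to HF of 12.5 with an interval of 3.19 to 108, and was not called (edgeR adjusted p = 0.087).

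The Mx GTPases bind viral ribonucleoproteins, and Mx1 is known to carry a loss-of-function deletion in C57BL/6 mice. Mx1 was at 4.41, 2.95 and 3.24 CPM in the Touchdome libraries, 2.05, 1.27 and 1.63 in the IFE libraries and 2.88, 1.26 and 0.852 in the HF libraries. All Touchdome libraries were above all others, and HF replicate 1 was above every IFE library. Touchdome minus IFE was 1.09 ± 0.50 (edgeR adjusted p = 0.462) and Touchdome minus HF was 1.06 ± 0.50 (edgeR adjusted p = 0.156), neither called. Without HF replicate 1, Touchdome minus HF was 1.75 and was called (edgeR adjusted p = 0.0415). Mx2 was at 4.99, 1.52 and 5.15 CPM in the Touchdome libraries, 2.84, 1.62 and 1.86 in the IFE libraries and 1.01, 0.948 and 1.44 in the HF libraries. Touchdome replicate 2 was far below the other Touchdome libraries, and Touchdome minus HF was 1.77 ± 0.53 (edgeR adjusted p = 0.0262), lost without Touchdome replicate 1 or 3, without HF replicate 1 or 2 and in both limma fits on TPM (adjusted p up to 0.194).

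**Figure D3:**
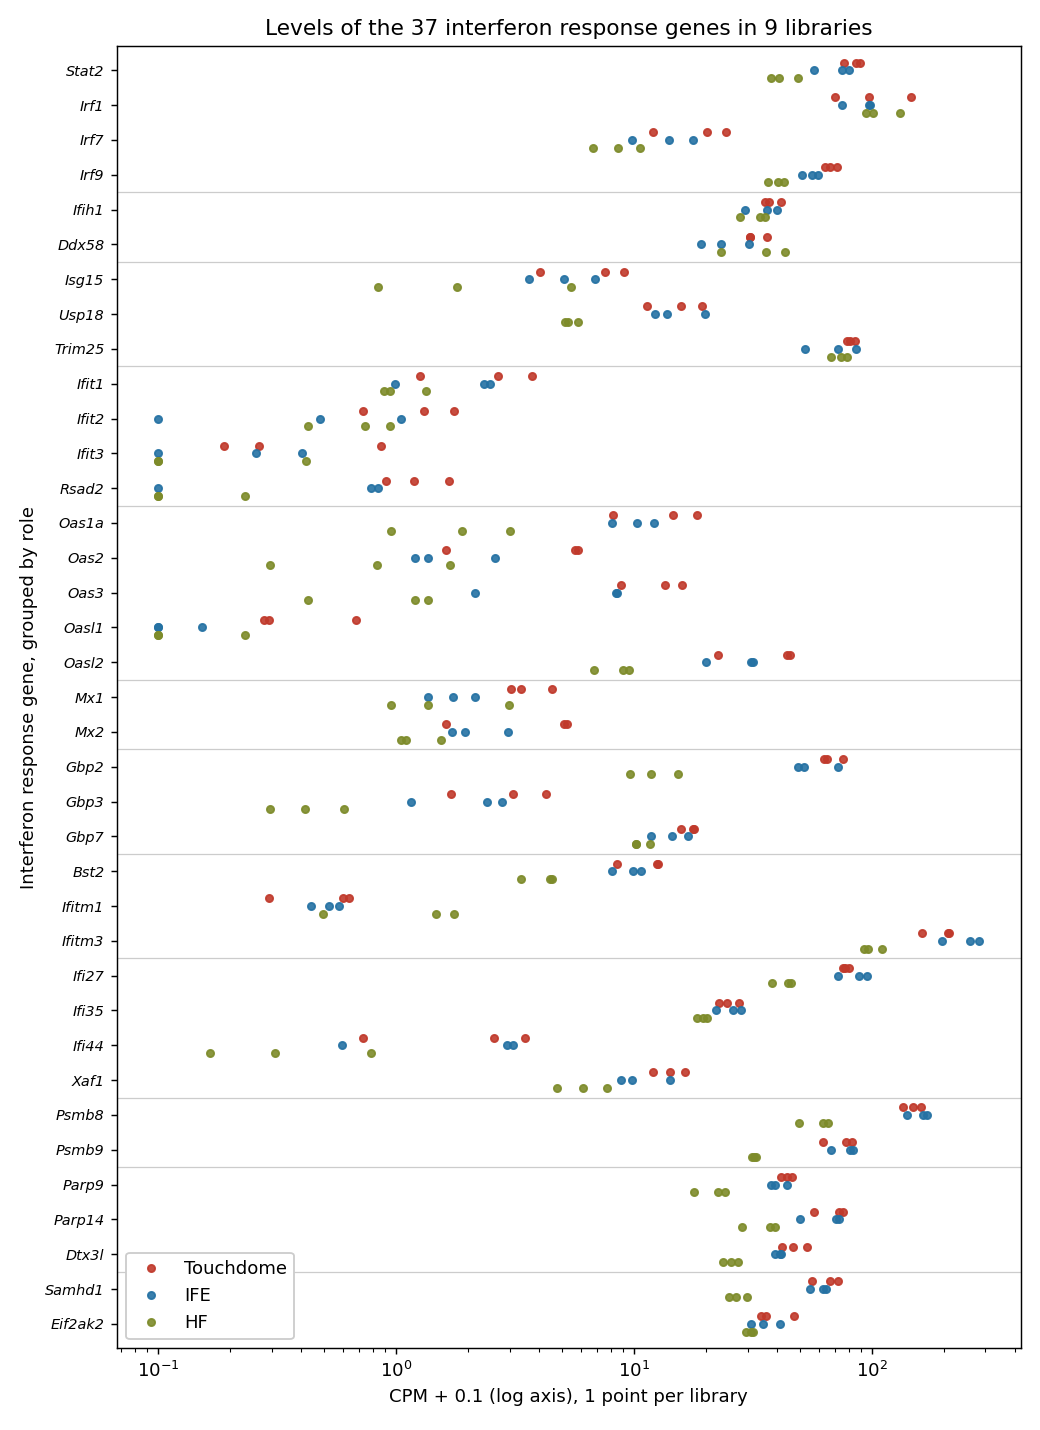
CPM + 0.1 of all 37 interferon response genes on a log axis, 1 point per library, with horizontal lines between roles. The HF points lie left of the others for most genes. Irf1, Ddx58, Trim25 and Ifitm1 are among the exceptions, and genes at 0 sit at the left edge at 0.1.

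Between genes, levels are comparable only per length. On the TPM scale, averaged over the 3 group means, the most abundant members were Ifitm3 at 620.9 TPM, Ifi27 at 225.1, Psmb8 at 224.4, Irf1 at 98.4 and Psmb9 at 91.0. The lowest were Oasl1 and Ifit3 at 0.209 TPM each and Rsad2 at 0.318. The order was similar in the 3 groups: Ifitm3 was first in each, and Gbp2 moved most among abundant members, from rank 8 in Touchdome and 9 in IFE to rank 20 in HF. Summed over the 37 members, the level lay between 1802 and 2229 TPM in Touchdome, between 1842 and 2070 in IFE and between 1036 and 1237 in HF. That sum is carried mostly by Ifitm3, Ifi27 and Psmb8.

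Members also varied together between libraries of 1 group. The median member was 0.12 above, 0.24 below and 0.16 above its group mean on the log2 scale in Touchdome replicates 1, 2 and 3, as a deviation of log2 CPM, while the median of all genes stayed within 0.0072 of 0. Touchdome replicate 2 was the lowest Touchdome library for 26 of 34 members, and replicate 3 the highest for 16. In IFE, replicate 2 was the lowest for 23 of 34 and replicate 3 the highest for 20. In HF, replicate 3 was the lowest for 19 and replicate 1 the highest for 16. For all genes tested, the share lowest was 35.5% in Touchdome replicate 2, 40.8% in IFE replicate 2 and 31.8% in HF replicate 3. The share highest was 33.4% in Touchdome replicate 3, 28.2% in IFE replicate 3 and 30.5% in HF replicate 1. The median SD within a group on the log2 scale was 0.24, 0.31 and 0.25 for members in Touchdome, IFE and HF, against 0.22, 0.25 and 0.19 for all genes tested.

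**Figure D4:**
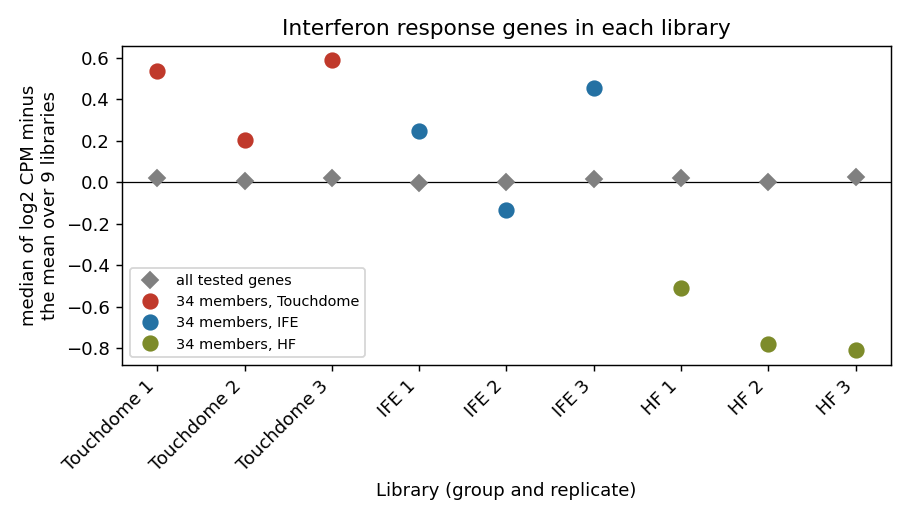
Median over the 34 tested members (circles) and over all tested genes (grey diamonds) of log2 CPM minus the gene's mean over 9 libraries, for each library. The HF libraries lie between -0.81 and -0.51, the Touchdome libraries between 0.20 and 0.59, and IFE spans -0.13 to 0.45, with replicate 2 the lowest of both SCA1+ groups, while all genes stay near 0.

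The genes upstream of the response were read from lists of pathway components. Of 12 interferon ligand genes none passed the low-count filter. Ifnk, the keratinocyte interferon kappa, had 20 counts in Touchdome, all of them in replicate 1 at 1.28 CPM, 0 in IFE and 3 in HF. Ifng was at most 0.249 CPM in any library, and Ifnb1 and the 5 interferon alpha genes listed were at 0 in all 9.

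Of the 9 receptor and kinase genes, 4 were higher in Touchdome than in HF and 3 were lower in HF than in IFE. Of all genes tested, 11.8% and 16% were called in these directions. A further 1 of the 9, against 0.0798% of all genes tested, was lower in Touchdome than in IFE. That gene was Ifngr1, the ligand-binding chain of the interferon gamma receptor, at 124, 142 and 98.1 CPM in the Touchdome libraries, 192, 227 and 172 in the IFE libraries and 42.5, 47.3 and 37.2 in the HF libraries. The 3 groups did not overlap, with IFE the highest and HF the lowest. The differences were -0.69 ± 0.15 for Touchdome minus IFE (edgeR adjusted p = 0.0481), 1.52 ± 0.16 for Touchdome minus HF (edgeR adjusted p = 1.92e-05) and -2.22 ± 0.16 for HF minus IFE (edgeR adjusted p = 6.84e-07). The first lay close to the threshold, and neither limma fit on TPM called any gene lower in Touchdome than in IFE. Its partner Ifngr2 was 0.59 ± 0.13 higher in Touchdome than in HF on the log2 scale (edgeR adjusted p = 0.00402), and the kinase gene Jak1 was 0.50 ± 0.13 higher (edgeR adjusted p = 0.0136). Ifnlr1, a chain of the type III receptor, was 0.43 ± 0.14 higher (edgeR adjusted p = 0.0432). The type I receptor genes Ifnar1 and Ifnar2 were not called in any comparison, with Ifnar1 at 48.5 to 65.5 CPM over the 9 libraries.

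Irf5, a factor that drives inflammatory cytokine genes, was at 24.8, 27.4 and 25.9 CPM in the Touchdome libraries, 27.7, 39.2 and 32.3 in the IFE libraries and 11.1, 9.48 and 8.91 in the HF libraries. The HF libraries lay far below the rest, and every IFE library lay above every Touchdome library. Touchdome minus HF was 1.40 ± 0.17 (edgeR adjusted p = 5.22e-05) and HF minus IFE was -1.74 ± 0.17 (edgeR adjusted p = 5.75e-06), while Touchdome minus IFE, at -0.34 ± 0.16, was not called (edgeR adjusted p = 0.465). Stat3, which mainly answers cytokines of the interleukin 6 family, overlapped in all groups and was called in no comparison.

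**Figure D5:**
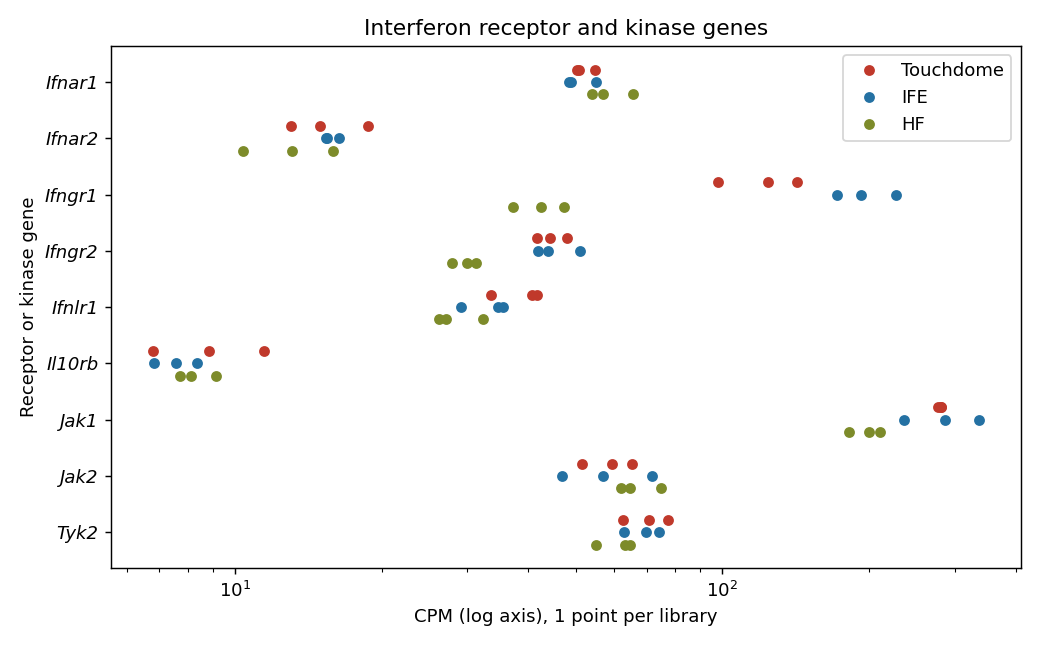
CPM on a log axis of 9 interferon receptor and kinase genes, 1 point per library. Ifngr1 shows HF apart from the other groups and IFE above Touchdome, while Ifnar1 and Jak2 overlap.

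Of 10 tested genes of nucleic acid sensing, 3 were higher in Touchdome than in HF, 4 were lower in HF than in IFE and 1, Sting1, was higher in HF than in IFE. Ikbke, a kinase that activates interferon regulatory factors, was at 118, 138 and 131 CPM in the Touchdome libraries, 152, 143 and 161 in the IFE libraries and 46.7, 45.4 and 46.9 in the HF libraries. Its HF libraries lay far below the rest, with Touchdome minus HF at 1.48 ± 0.11 (edgeR adjusted p = 1.07e-06). Zbp1, a sensor of left-handed nucleic acids, had 174 counts in Touchdome and 2 in HF, a ratio of 104 with a counting interval of 28.5 to 869. Cgas, the cytosolic DNA sensor, was 1.05 ± 0.23 higher in Touchdome than in HF (edgeR adjusted p = 0.00499). Of the 10 feedback inhibitors, 2 were higher in Touchdome than in HF, Adar and Trex1, while Cish and Trex1 were lower and Rnf125 was higher in HF than in IFE. With 11.8%, 16% and 17.1% of all genes tested called in these directions, counts of 1 or 2 in 10 do not stand out.

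A list of 34 further induced genes, 30 of them tested, was read in the same way. In Touchdome against HF, 16 were higher and 1 lower, against 11.8% and 12.8% of all genes tested. In HF against IFE, 12 were lower and 2 higher, against 16% and 17.1%. Between Touchdome and IFE none of the 30 was called, against 1.22% higher and 0.0798% lower of all genes tested. Iigp1, a GTPase induced by interferon gamma, was at 39.00, 22.9 and 32.5 CPM in the Touchdome libraries, 20.99, 14.4 and 25.9 in the IFE libraries and 3.56, 3.37 and 3.21 in the HF libraries. HF was far below, with Touchdome minus HF at 3.21 ± 0.26 (edgeR adjusted p = 2.62e-06) and HF minus IFE at -2.59 ± 0.26 (edgeR adjusted p = 8.71e-06). Lgals9 and Igtp were 1.40 ± 0.13 (edgeR adjusted p = 9.08e-06) and 1.32 ± 0.17 (edgeR adjusted p = 0.000135) higher in Touchdome than in HF. The genes that went the other way were Ifitm2, a paralog of Ifitm3, in both comparisons with HF, and Znfx1, an RNA sensor, in HF against IFE. For Ifitm2, HF minus IFE was 0.40 ± 0.14 (edgeR adjusted p = 0.0485), and for Znfx1 it was 0.74 ± 0.18 (edgeR adjusted p = 0.00672). Touchdome minus HF for Ifitm2 was -0.54 ± 0.14 (edgeR adjusted p = 0.0148).

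Other cells could be in the sorts, and their markers were summed. Langerhans cell markers lay between 174.4 and 384.2 CPM in Touchdome, between 135.1 and 286.4 in IFE and between 152.4 and 549 in HF. Of 6 tested, 1 was lower in Touchdome than in HF and 1 was higher in HF than in IFE. Mfge8 was the only tested one whose HF libraries overlapped neither other group, at 107.7, 85.04 and 83.4 CPM in replicates 1 to 3. Cd207 was at 21.4, 21.8 and 0.852 CPM in the same libraries. Macrophage and monocyte markers came to 9.85 to 10.96, 7.60 to 9.62 and 0.852 to 24.6 CPM, with none of 5 tested called. HF replicate 3 held the lowest Langerhans and macrophage sums in HF. In HF replicates 1 to 3 the Langerhans sums were 549, 506.6 and 152.4 CPM, and the median member levels were -0.51, -0.78 and -0.81. A link between them was not tested. T cell markers summed to between 6.44 and 7.74 CPM in Touchdome, between 3.26 and 7.03 in IFE and between 1.44 and 4.22 in HF, and 1 of 4 tested, Cd3e, was higher in Touchdome than in HF and lower in HF than in IFE. Means of all T cell markers listed were higher in Touchdome than in HF. Against IFE, the HF means of Cd3e, Trdc and Cd247 were lower. Those of Cd3g, Cd3d and Cd2 were higher, at 0.749, 0.285 and 0.141 CPM in HF against 0.592, 0.166 and 0.0631 in IFE. The part of T cells in the result was not tested. Fibroblast markers came to 21.7 to 74.5, 0.579 to 2.92 and 62.2 to 87.02 CPM, melanocyte markers to 5.63 to 25.99, 2.32 to 3.24 and 5.21 to 25.2, Merkel cell markers to 1.52 to 10.6, 0.114 to 0.263 and 3.37 to 3.997, and endothelial markers to at most 2.56. In HF against IFE, 3 of 4 tested fibroblast, 2 of 3 melanocyte and 2 of 2 Merkel cell markers were called higher. In Touchdome, 1 fibroblast and 1 Merkel cell marker were called higher than in IFE, and 1 fibroblast marker lower than in HF. The Merkel cell genes Atoh1 and Sox2 and the plasmacytoid dendritic cell gene Siglech were at 0 in all 9 libraries. Of other Merkel cell markers, Krt8 reached 7.16 CPM in Touchdome replicate 1, and Piezo2 had 74 counts in HF and 0 in IFE. The part of these cells in the result was not tested.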

How the data were processed

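RNA-seq was done on 9 libraries, 3 each of Touchdome, IFE and HF cells, read as pairs of 150 nt from 50 ng of RNA with poly(A) selection, per the labels' protocols. The table deposited by the authors holds expected counts, which are estimates without scaling across libraries and are whole in 92.5% to 94.6% of rows, and TPM values, per the file headers. The submitters' processing notes list the build mm39 with STAR 2.7.9a and RSEM 1.3.3, and DESeq2 at 1.38.2. The annotation is not given in the sources used here, nor is the strand setting, so overlapping, antisense and near-identical genes are uncertain. A GENCODE table paired identifiers with symbols.

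Expected counts were rounded, filtered by filterByExpr (minimum count 10, minimum total count 15) and scaled by TMM. All 9 libraries entered 1 robust quasi-likelihood fit in edgeR 4.0.16 (R 4.3.3), with Benjamini-Hochberg adjustment over the 15046 genes and a threshold of 0.05. CPM values are at the TMM-scaled size. Alternatives used RLE or upper-quartile factors, no filter, DESeq2 1.42.0, only the 2 groups compared, limma 3.58.1 on log2(TPM + 1) and log2(TPM + 0.1), a replicate block and each library left out. Library totals of 9295059 to 28249763 counts put 3 counts at 0.114 to 0.316 CPM. The fit was also run on counts simulated from its own means and dispersions. Such counts hold no shift shared by genes within a library, so the run cannot show how the test behaves where libraries differ that way.

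Same-numbered Touchdome and IFE libraries deviated together, with correlations of 0.146, 0.173 and 0.203 over genes. Their numbers were taken to pair them in the fits with a replicate block, but the main fit had no such block. A fit of Touchdome and IFE alone with this block added the call of Oas3. Members, lists and motifs were chosen with earlier results of these data known. All members were named, the list of other signalling factors is not reported here in full, and of each pathway list up to 3 called genes with the smallest p. Genes called against the direction of their list were named after their values were seen.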

Additional observations from a re-analysis of the deposited data

How the results depend on the processing

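Of the 23 members higher in Touchdome than in HF, 15 were called in each of 17 alternatives, and of the 19 lower in HF than in IFE, 11 were. No called member changed sign under any of them. Leaving out 1 library at a time gave 19 to 24 members higher in Touchdome than in HF, 17 to 22 lower and 0 to 1 higher in HF than in IFE. Of all genes tested, 9.03% to 13.7%, 12.2% to 15.4% and 14% to 16.8% were called in these directions. The limma tests on log2(TPM + 1) and log2(TPM + 0.1) each gave 11 lower and 1 higher in HF than in IFE, and for Touchdome against HF they gave 18 and 16 higher. With limma, 7.99% and 8.04% of all genes tested were lower and 19.7% and 19.2% higher in HF than in IFE. For Touchdome against HF, 8.52% and 8.37% were higher. The replicate block in the fit of 9 libraries gave 24 members higher in Touchdome than in HF, 20 lower in HF than in IFE and 0 in either direction between Touchdome and IFE. With the block, 12.6% of all genes tested were higher in Touchdome than in HF and 16.8% lower in HF than in IFE. Between Touchdome and IFE, 1.87% were higher in Touchdome and 0.445% lower. The block lost the call of Oas2 and gained Isg15 and Ifi44 against HF and Irf7 between HF and IFE. Deviations of the HF libraries went little with those of same-numbered others, with correlations of -0.026 to 0.070. Whether HF libraries are paired with the others is not stated in the labels. A fit of Touchdome and IFE alone with the replicate block, chosen after seeing the data, gave 1 member higher in Touchdome, Oas3. In that fit 2.64% of all genes tested were higher in Touchdome.

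Signs changed only for members that were not called. For Touchdome minus IFE, the limma values with TPM + 1 and TPM + 0.1 were -0.14 and -0.18 for Mx2, 0.089 and 0.089 for Ifi27, 0.11 and 0.11 for Ifi35, 0.071 and 0.072 for Psmb8 and 0.041 and 0.042 for Psmb9. Ifi44 was at -0.13 with TPM + 1, and upper-quartile factors put Ifi35 at 0.0044. For HF minus IFE, Ifih1 was at 0.17 and 0.18 with limma, and Mx1 was at -0.093 with the replicate block. Leaving out 1 library at a time gave log2 fold changes for Touchdome minus IFE of -0.10 to 0.43 for Irf1, -0.011 to 0.21 for Ifih1, -0.17 to 0.25 for Usp18, -0.12 to 0.049 for Ifi35, -0.44 to 0.46 for Ifi44, -0.15 to 0.053 for Psmb9, -0.067 to 0.20 for Parp14 and -0.032 to 0.24 for Eif2ak2. For Touchdome minus HF they were -0.38 to 0.16 for Irf1 and -0.28 to 0.13 for Ddx58, and for HF minus IFE -0.10 to 0.24 for Trim25, -0.14 to 1.46 for Ifit2 and -0.66 to 0.35 for Mx1. The cause was not tested.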
